A study of Mus musculus with 12 samples.

Results

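Small leucine-rich proteoglycans are secreted matrix proteins built around a horseshoe of leucine-rich repeats, and most carry chains of chondroitin, dermatan or keratan sulfate. They bind collagen fibrils and set fibril spacing and diameter, and several also hold growth factors such as TGF-beta near the cell. In skeletal muscle, fibroblast-like cells of the interstitium are a main source of them. The 9 genes described here were chosen by symbol from the 54100 rows of the count table: decorin (Dcn), biglycan (Bgn) and asporin (Aspn) of class I, lumican (Lum), fibromodulin (Fmod), prolargin (Prelp) and osteomodulin (Omd) of class II, osteoglycin (Ogn) of class III and podocan (Podn) of class V. All 9 of the 9 had enough counts to enter the test, which covered 8161 genes.

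The cells were fibro-adipogenic progenitors, Pdgfra-positive mesenchymal cells of mouse muscle, sorted at 1000 cells per tube from the plantaris, a calf muscle. There were 4 groups of 3 libraries: cdKO overload, cdKO sham, control overload and control sham. The conditional double knockout (cdKO) carried Yap1 flox/flox and Taz flox/flox alleles together with Pdgfra-CreERT2, for loss of the Hippo pathway co-activators YAP and TAZ (TAZ is encoded by Wwtr1). Control mice carried Pdgfra-CreERT2 alone, so every group has the same tamoxifen-regulated Cre, driven by the gene that also defines the sort. Muscles were either overloaded, which makes the plantaris carry extra load, or sham-operated. Age, time after surgery, floxed exons and any pooling of mice are not stated in the labels. Whether the 3 libraries of a group were separate animals is likewise not stated, and the p-values below therefore rest on a spread that may be technical.

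Library totals ran from 336437 to 1564581 counts, and 3 counts correspond to 1.95 to 9.72 CPM, depending on the library (CPM is a gene's share of a library's counts, scaled to a fixed total with TMM factors). Wwtr1 was at 18.2 to 22.5 CPM in cdKO overload and 27.1 to 40.6 CPM in cdKO sham, against 125 to 174 CPM in control overload and 108 to 126 CPM in control sham. Yap1 was at 22.1 to 40.2 CPM in cdKO overload and 56.2 to 71.5 CPM in cdKO sham, against 39.7 to 91.3 CPM in control overload and 91.6 to 108 CPM in control sham. Yap1 did not pass between genotypes under either load (edgeR adjusted p = 0.586 in overloaded and 0.999 in sham muscle). For Yap1 and Wwtr1 alike, 3′ tags outside a deleted exon would not check the deletion. Of the sort markers, Pdgfra was counted in every library, at 259 to 391, 565 to 899.6, 308 to 443 and 479.5 to 608 CPM in cdKO overload, cdKO sham, control overload and control sham. Control overload replicates 2 and 3 stood apart from the other 10 libraries in the summed level of 4 Y-linked genes (Ddx3y, Eif2s3y, Kdm5d and Uty), at 64.9 and 68.9 CPM against 118 to 270 CPM. Calls of named genes between control overload and control sham are also given without them. That comparison then has a single overloaded control library, assumed to vary like the other groups. Of the 12 libraries, control overload replicate 2 had the most counts and the fewest detected genes (16744, against 19700 to 23918 in the others).

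In overloaded muscle most of the family stood lower than in sham muscle in both genotypes, with biglycan the exception that rose. In cdKO, Dcn, Prelp, Ogn, Omd and Podn fell, Bgn rose, and Lum, Aspn and Fmod did not pass. In controls the same 5 genes and Lum fell, Bgn rose, and Aspn and Fmod did not pass. Counted over the 9 genes, 1 was higher and 5 were lower in cdKO, where 13.0% of all tested genes passed (6.37% higher and 6.68% lower). In controls 1 was higher and 6 were lower, where 21.7% of tested genes passed (10.6% higher and 11.0% lower). The median log2 fold change of the 9 was -1.21 in cdKO and -1.39 in controls, beside -0.02 and -0.05 over all tested genes. Calls are those of edgeR's quasi-likelihood test, with p-values adjusted by Benjamini-Hochberg over every tested gene and a threshold of 0.05. In bulk RNA of sorted cells, fewer cells of a type and less RNA per cell cannot be told apart.

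**Figure D1:**
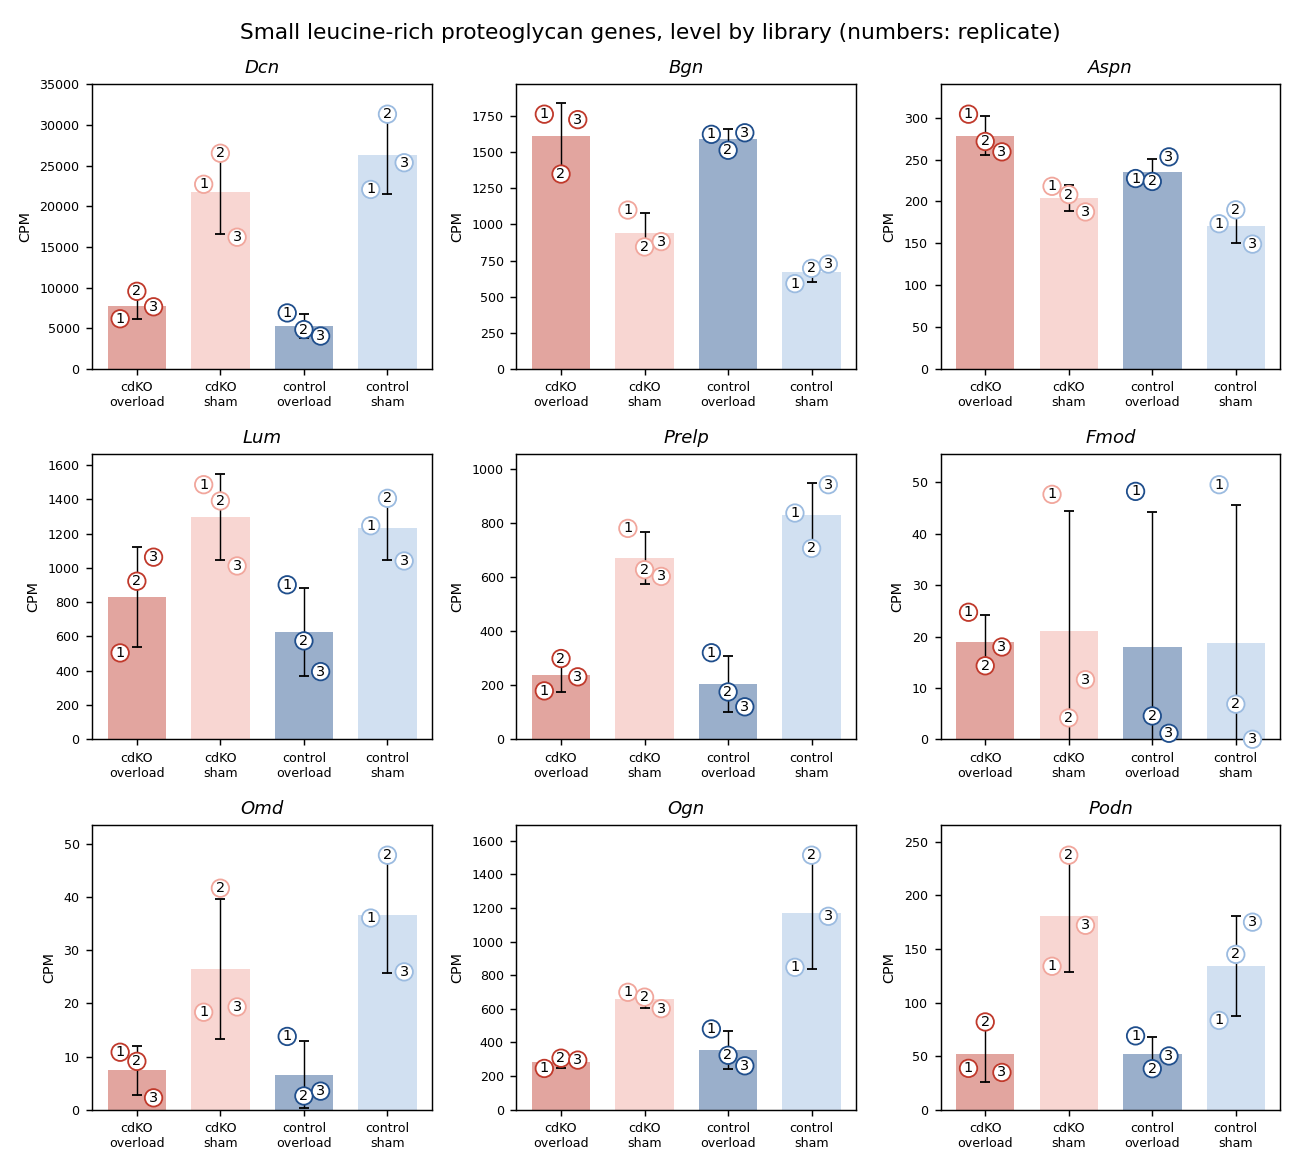
Level of each of the 9 genes in CPM (linear axis from 0) in the 4 groups; bars are means of 3 libraries, error bars are SD, and the circled numbers are the replicates. Dcn, Prelp, Ogn and Omd sit lower in the overloaded groups of both genotypes, Bgn and Aspn sit higher, and Fmod is set by replicate 1 in 3 of the groups.

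Decorin, the class I proteoglycan that binds collagen I and sequesters TGF-beta, took most of the family's counts (GRCm38 chromosome 10, 97479609 to 97518143, plus strand). It was at 6154, 9531 and 7629 CPM in cdKO overload, against 22700.3, 26520.4 and 16188 CPM in cdKO sham. In controls it was at 6874.5, 4821 and 4026 CPM under overload, against 22065.6, 31327 and 25354 CPM after sham surgery. Every overloaded library lay below every sham library, in both genotypes. Dcn was 2.81-fold lower in cdKO overload than in cdKO sham (log2 fold change -1.49 ± 0.29 SE, adjusted p = 0.00154) and 5.01-fold lower in control overload than in control sham (-2.32 ± 0.30, adjusted p = 7.42e-06). Without control overload replicates 2 and 3 the control value was -1.95 (adjusted p = 0.0146).

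Biglycan, the closest relative of decorin and also a ligand of innate immune receptors, went the other way (chromosome X, 73483602 to 73495933, plus strand). It was at 1764, 1349.5 and 1727 CPM in cdKO overload, against 1099.9, 844 and 881 CPM in cdKO sham. In controls it was at 1625, 1514 and 1635.5 CPM under overload, against 590.0, 696 and 726 CPM after sham surgery. Neither pair of groups overlapped. Bgn was 1.71-fold higher in cdKO overload (0.78 ± 0.24, adjusted p = 0.0307) and 2.37-fold higher in control overload (1.25 ± 0.24, adjusted p = 6.20e-04). The cdKO call was lost without cdKO overload replicate 1 or 3 (adjusted p = 0.128 and 0.113) and without cdKO sham replicate 2 or 3 (adjusted p = 0.107 for each), and without the filter on low counts (0.85, adjusted p = 0.124), while the control value was 1.25 without control overload replicates 2 and 3 (adjusted p = 0.0300).

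The balance of these genes was read within each library as well. For every 100 Dcn counts there were 14.2 to 28.7 Bgn counts in cdKO overload, against 3.18 to 5.44 in cdKO sham. In controls there were 23.6 to 40.6 under overload, against 2.22 to 2.86 after sham surgery. These ratios need no scaling between libraries, and they show unequal change of the 2 genes rather than the change of either. The 9 genes together made up 0.864% to 1.24% of all counts in cdKO overload, against 1.82% to 2.88% in cdKO sham, and 0.665% to 1.04% in control overload, against 2.57% to 3.32% in control sham. Leaving Dcn out, the other 8 made up 0.288% to 0.339% in cdKO overload, against 0.322% to 0.406% in cdKO sham, and 0.268% to 0.362% in control overload, against 0.383% to 0.434% in control sham. Without Dcn the cdKO groups overlapped and the control groups did not.

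Asporin, a class I member with a stretch of aspartate that binds calcium and collagen, was at 304, 272 and 259 CPM in cdKO overload, against 218, 208 and 187.5 CPM in cdKO sham. In controls it was at 227, 224 and 253 CPM under overload, against 173, 190.0 and 149 CPM after sham surgery. All 3 overloaded libraries were above all 3 sham libraries in each genotype, but the difference of 0.44 ± 0.22 in cdKO did not pass (adjusted p = 0.189), nor did that of 0.45 ± 0.22 in controls (adjusted p = 0.152), which was 0.38 without control overload replicates 2 and 3 (adjusted p = 0.641). Libraries of the groups did not overlap for 30.0% of all tested genes in cdKO and for 36.9% in controls, and for 7 and 8 of the 9 proteoglycans.

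Among class II genes, lumican, which carries keratan sulfate in the cornea and limits fibril thickness, had the smallest change of those that fell in controls. It was at 504, 922 and 1062 CPM in cdKO overload, against 1485, 1390.0 and 1011 CPM in cdKO sham. In control overload it was at 901, 574 and 395 CPM, against 1245, 1405 and 1040.0 CPM in control sham. The cdKO groups overlapped and the control groups did not. Lum fell in control overload (-0.99 ± 0.30, adjusted p = 0.0210), and its difference of -0.64 ± 0.30 in cdKO did not pass (adjusted p = 0.165). The control call was lost without control sham replicate 1 or 2 (adjusted p = 0.0546 and 0.0862), without control overload replicate 2 or 3 (adjusted p = 0.0734 and 0.127), and without both of those overloaded libraries, where the value was -0.47 (adjusted p = 0.647). It was also lost without the filter on low counts (-0.86, adjusted p = 0.0729) and with the summed Y-linked level as a covariate (-0.73, adjusted p = 0.270).

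Prolargin, which anchors basement membranes to collagen through an arginine- and proline-rich tail, followed decorin. It was at 179, 299 and 231 CPM in cdKO overload, against 781, 628 and 603 CPM in cdKO sham. Control overload libraries had 320.5, 175 and 120.2 CPM, against 838, 707 and 943 CPM in control sham. No overloaded library reached the lowest sham library of its genotype. Prelp was 2.83-fold lower in cdKO overload (-1.50 ± 0.30, adjusted p = 0.00143) and 4.07-fold lower in control overload (-2.03 ± 0.30, adjusted p = 3.32e-05), or -1.40 without control overload replicates 2 and 3 (adjusted p = 0.0455). Of its 3615 exonic bases 350 overlap an antisense gene model, Gm15851, which had 0 counts.

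Osteomodulin, known from bone as a regulator of collagen fibril shape, was close to the counting limit. It was at 10.8, 9.10 and 2.25 CPM in cdKO overload, against 18.3, 41.6 and 19.3 CPM in cdKO sham. Among controls the overloaded libraries had 13.8, 2.60 and 3.50 CPM, against 36.0, 47.8 and 25.9 CPM in control sham. Even so the groups did not overlap in either genotype. Omd was 3.83-fold lower in cdKO overload (-1.94 ± 0.56, adjusted p = 0.0229) and 6.71-fold lower in control overload (-2.75 ± 0.57, adjusted p = 0.00114). The cdKO call was lost without cdKO overload replicate 3 (adjusted p = 0.144) or cdKO sham replicate 2 (adjusted p = 0.201). The control value was -3.60 without control overload replicate 1, and without control overload replicates 2 and 3 it was -1.47 and did not pass (adjusted p = 0.314).

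Osteoglycin, also called mimecan, a keratan sulfate proteoglycan of many connective tissues, was at 246, 307 and 295 CPM in cdKO overload, against 698.4, 669.5 and 601 CPM in cdKO sham. In control overload it was at 481, 324 and 261.5 CPM, against 847, 1513 and 1150.1 CPM in control sham. The overloaded libraries were again all lower. Ogn was 2.32-fold lower in cdKO overload (-1.21 ± 0.27, adjusted p = 0.00394) and 3.31-fold lower in control overload (-1.73 ± 0.27, adjusted p = 6.10e-05), where it was -1.31 without replicates 2 and 3 of control overload (adjusted p = 0.0601).

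Podocan, a class V member described as a brake on smooth muscle cell growth, was at 38.6, 81.9 and 34.8 CPM in cdKO overload, against 134, 237 and 172 CPM in cdKO sham. Control overload had 68.9, 38.3 and 50.2 CPM, against 83.3, 145 and 175 CPM in control sham. The groups were separate in both genotypes, narrowly so in controls. Podn was 3.52-fold lower in cdKO overload (-1.82 ± 0.33, adjusted p = 9.54e-04) and 2.61-fold lower in control overload (-1.39 ± 0.34, adjusted p = 0.00512), and the control call was lost without control overload replicates 2 and 3 (-0.97, adjusted p = 0.348) and with the Y-linked covariate (-1.38, adjusted p = 0.0750).

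**Figure D2:**
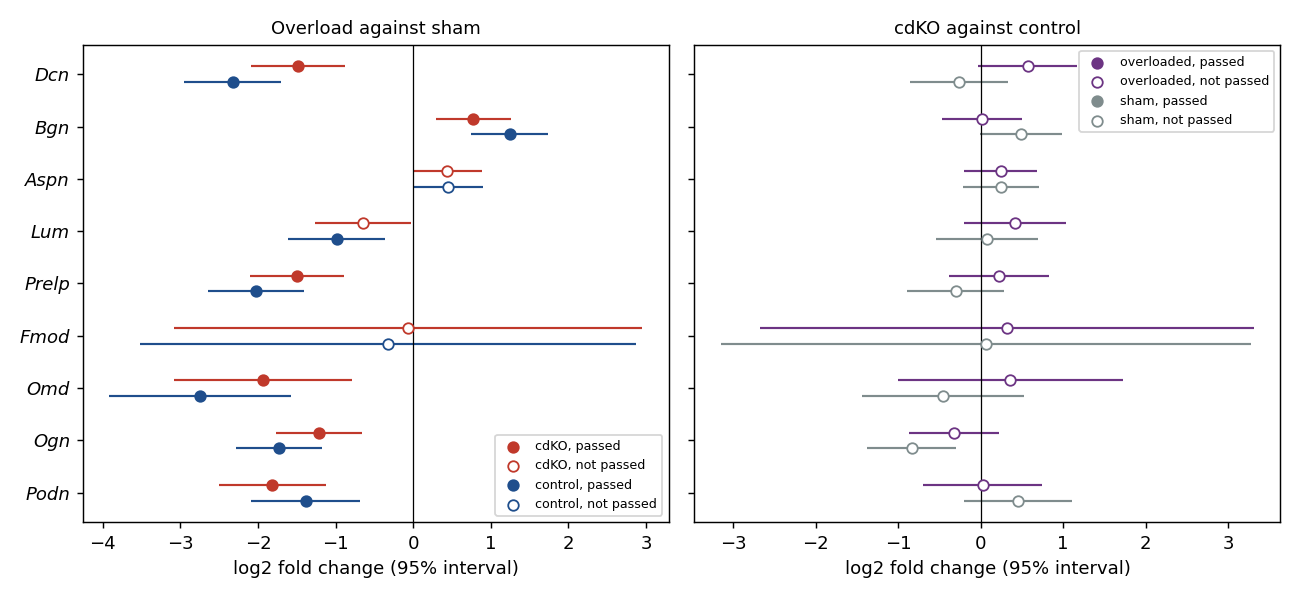
Log2 fold changes of the 9 genes with 95% intervals (edgeR): overload against sham in cdKO and control on the left, cdKO against control in overloaded and sham muscle on the right. Filled circles passed at an adjusted p under 0.05 and open circles did not; 6 genes passed in cdKO and 7 in controls on the left, and none on the right. The Fmod intervals span several units on both sides of 0.

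Fibromodulin, a class II member abundant in tendon and cartilage that regulates collagen crosslinking, showed no common direction. It was at 24.7, 14.3 and 18.0 CPM in cdKO overload, against 47.7, 4.16 and 11.6 CPM in cdKO sham. The control overload libraries stood at 48.2, 4.54 and 1.17 CPM, against 49.5, 6.84 and 0 CPM in control sham. Replicate 1 was several times the other libraries in cdKO sham, control overload and control sham, and in cdKO overload the libraries were close together. The load difference was -0.07 ± 1.33 in cdKO (95% interval -3.08 to 2.95) and -0.32 ± 1.41 in controls (-3.52 to 2.87), so these libraries cannot show even a several-fold change.

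The gene whose levels tracked Fmod most closely was Chad, which encodes chondroadherin, a leucine-rich protein of cartilage, with a root mean square difference of 0.61 in log2 CPM about each gene's mean over the 12 libraries. Chad was at 69.5, 39.0 and 93.2 CPM in cdKO overload, at 110.0, 12.5 and 59.9 CPM in cdKO sham, at 62.0, 7.14 and 8.17 CPM in control overload and at 137, 8.20 and 3.24 CPM in control sham. Replicate 1 was the highest of its group in cdKO sham, control overload and control sham, as for Fmod. Keratocan (Kera), a relative of lumican found in cornea and tendon, was highest in the same replicates, at 18.3 CPM in cdKO sham, 31.0 CPM in control overload and 27.0 CPM in control sham, against 0 to 13.0 CPM in the other 6 libraries of those groups. Tnmd, a tendon cell marker, was at 0 to 8.98 CPM over all 12 libraries, with at most 8 counts in any. Its highest library was replicate 1 in control overload (8.61 CPM) and control sham (4.50 CPM). In cdKO sham it was replicate 3, at 7.73 CPM against 7.33 CPM in replicate 1. Thbs4, Scx and Mkx were also listed as tenocyte markers. Over those groups, Thbs4 was highest in replicate 1 in cdKO sham and control sham. In control overload Thbs4 was lowest there, at 2255 CPM against 5102 and 3380 CPM. Scx was highest in replicate 1 in control sham only, and Mkx in control overload and control sham only. Scx and Mkx had at most 17 and 6 counts in any library. The part of tendon or cartilage cells in the Fmod values was not tested.

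**Figure D3:**
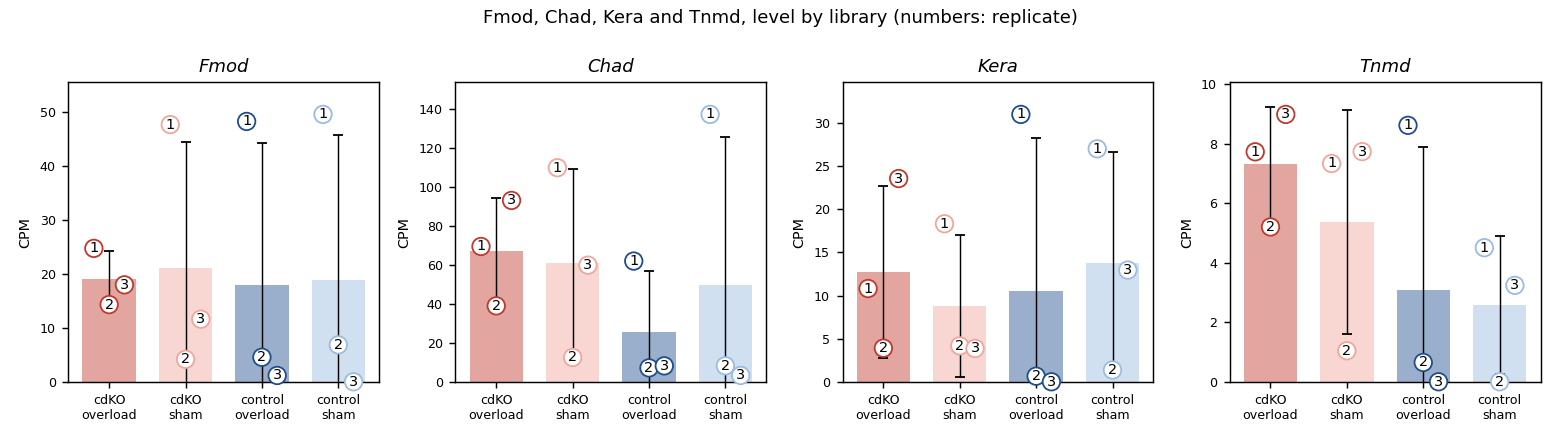
Level in CPM (linear axes from 0) of Fmod, Chad, Kera and Tnmd by group; bars are means of 3 libraries, error bars are SD (cut at 0), and the circled numbers are the replicates. In cdKO sham, control overload and control sham, replicate 1 has the highest Fmod, Chad and Kera levels.

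The comparison of cdKO with control asks whether the family depends on YAP and TAZ in these cells, and it shares libraries with the load comparisons above. No member was called in either load: 0 of 9 passed in overloaded muscle and 0 of 9 in sham muscle by edgeR, and 0 of 9 by DESeq2 in each. These stand beside 0.0368% of all tested genes called in overloaded muscle and 0.0123% in sham muscle. At an unadjusted p under 0.05 there were 0 of 9 in overloaded muscle, where 6.97% of tested genes reached it, and 1 of 9 in sham muscle, where 4.09% did. The median log2 difference of the 9 was 0.24 in overloaded and 0.06 in sham muscle, beside 0.03 and 0.01 over all genes.

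In sham muscle the gene at an unadjusted p under 0.05 was Ogn, lower in cdKO than in control, with a log2 fold change of -0.84 ± 0.26 (95% interval -1.38 to -0.29, unadjusted p = 0.00395, edgeR adjusted p = 0.999). The cdKO libraries, at 601 to 698.4 CPM, all lay below the control libraries, at 847 to 1513 CPM. Bgn was 0.49 ± 0.24 higher in cdKO sham (-0.002 to 0.98, adjusted p = 0.999), at 844 to 1099.9 CPM against 590.0 to 726 CPM in control sham. Those were the 2 of the 9 whose sham libraries did not overlap between genotypes, beside 9.89% of all tested genes. In overloaded muscle the groups were separate for Aspn alone, at 259 to 304 CPM in cdKO against 224 to 253 CPM in control, beside 10.7% of all tested genes. Its difference was 0.24 ± 0.21 (-0.20 to 0.69, adjusted p = 0.896).

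For the other members the intervals give the range of genotype differences for each gene taken alone, without adjustment for the number of genes tested. Calls used adjusted p-values, so the intervals do not show how large a difference could have gone uncalled. The sham interval of Ogn above lay wholly below no change, and Ogn did not pass. In overloaded muscle Dcn differed by 0.57 ± 0.29 (-0.03 to 1.17), Lum by 0.42 ± 0.30 (-0.20 to 1.04), Prelp by 0.22 ± 0.30 (-0.39 to 0.83) and Bgn by 0.02 ± 0.24 (-0.46 to 0.50). In sham muscle Dcn differed by -0.27 ± 0.29 (-0.86 to 0.33), Prelp by -0.30 ± 0.29 (-0.89 to 0.29), Lum by 0.07 ± 0.30 (-0.54 to 0.69) and Podn by 0.45 ± 0.32 (-0.21 to 1.11). The intervals for Omd (-1.01 to 1.72) and Fmod (-2.68 to 3.31) in overloaded muscle are wider than these. Ogn had the lowest difference of the members in overloaded muscle, at -0.32. Without control overload replicates 2 and 3 the overloaded differences were 0.17 for Dcn, -0.12 for Lum and -0.44 for Prelp. They were -0.77 for Ogn, -0.017 for Bgn and 0.28 for Aspn.

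A test of the interaction compared the size of the overload response between cdKO and control. It passed for 0 of 9 members and for 0.0% of all genes by edgeR, with 0 of 9 at an unadjusted p under 0.05, where 5.23% of genes reached it, and 0 of 9 by DESeq2. The value nearest to passing was that of Dcn, whose fall under overload was smaller in cdKO by 0.84 ± 0.41 on the log2 scale (95% interval -0.005 to 1.68, unadjusted p = 0.0514, edgeR adjusted p = 0.931). It was 0.45 without control overload replicates 2 and 3 (adjusted p = 0.999). For Bgn, whose rise was smaller in cdKO, the interaction was -0.47 ± 0.34 (-1.16 to 0.22), and for Aspn it was -0.01 ± 0.31 (-0.64 to 0.63).

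Several of these genes sit side by side in the genome, and neighbours did not always move together. On chromosome 13 the order is Ecm2, Aspn, Omd and Ogn, all on the plus strand, with Aspn at 49544443 to 49567565, Omd at 49582462 to 49592822 and Ogn at 49608046 to 49624501 (GRCm38). Ecm2, a leucine-rich matrix protein, Omd and Ogn fell under overload in both genotypes, whereas Aspn, which lies between Ecm2 and Omd, had higher levels in all overloaded libraries of each genotype and did not pass. For every 100 Ogn counts there were 87.8 to 124 Aspn counts in cdKO overload, against 31.1 to 31.2 in cdKO sham, and 47.3 to 96.9 in control overload, against 12.6 to 20.5 in control sham. The sham ratios of cdKO and control did not overlap, nor did those of Bgn to Dcn. Under overload both ratios overlapped between genotypes. Ogn and Bgn, which enter these ratios, were themselves separate between genotypes in sham muscle. No member passed between genotypes in sham muscle, where libraries did not overlap for 9.89% of all tested genes. A share over all genes was not computed for ratios. Of the neighbours outside the family, Ippk and Nol8 rose in controls (2.01 ± 0.70, adjusted p = 0.0422, and 1.28 ± 0.35, adjusted p = 0.00939), and Bicd2 and Iars did not pass. Ippk was at -0.43 without control overload replicates 2 and 3 and did not pass (adjusted p = 0.928), and Nol8 was at 1.81 (adjusted p = 0.0166). The Ippk call was lost in 11 of 20 alternatives. All 4 family genes lie within the span of Cenpp on the opposite strand, which had 20 counts in all libraries together. It shares 7 exonic bases with Aspn.

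Promoters of these 4 neighbours are shown because the genes share a locus and differ in direction. Each is the 300 bases from 250 before to 50 after the start in RefSeq (GRCm38.p6), read on the plus strand, at chr13:49504560-49504859 for Ecm2, chr13:49544193-49544492 for Aspn, chr13:49582212-49582511 for Omd and chr13:49607765-49608064 for Ogn. Capitals mark matches on either strand to the core TEAD motif (GGAATG), the AP-1 motif (TGANTCA) or the TATA box letters (TATAAA).
Ecm2: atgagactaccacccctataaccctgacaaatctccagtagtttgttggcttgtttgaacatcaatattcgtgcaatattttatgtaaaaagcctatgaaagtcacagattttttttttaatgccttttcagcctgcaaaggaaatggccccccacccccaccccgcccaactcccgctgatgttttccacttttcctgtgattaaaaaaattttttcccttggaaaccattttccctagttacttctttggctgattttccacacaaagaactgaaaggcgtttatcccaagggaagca
Aspn: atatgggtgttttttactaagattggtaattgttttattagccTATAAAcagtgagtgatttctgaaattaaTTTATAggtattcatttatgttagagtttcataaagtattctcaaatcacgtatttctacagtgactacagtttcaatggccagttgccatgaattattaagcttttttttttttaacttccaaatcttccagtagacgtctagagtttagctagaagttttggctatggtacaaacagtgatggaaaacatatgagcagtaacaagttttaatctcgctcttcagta
Omd: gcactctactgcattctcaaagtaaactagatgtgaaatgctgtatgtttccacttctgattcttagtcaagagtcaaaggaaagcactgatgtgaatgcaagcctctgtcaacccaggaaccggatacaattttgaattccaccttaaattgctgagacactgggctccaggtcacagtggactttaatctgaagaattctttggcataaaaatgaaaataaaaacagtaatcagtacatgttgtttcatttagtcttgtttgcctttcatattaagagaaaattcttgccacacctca
Ogn: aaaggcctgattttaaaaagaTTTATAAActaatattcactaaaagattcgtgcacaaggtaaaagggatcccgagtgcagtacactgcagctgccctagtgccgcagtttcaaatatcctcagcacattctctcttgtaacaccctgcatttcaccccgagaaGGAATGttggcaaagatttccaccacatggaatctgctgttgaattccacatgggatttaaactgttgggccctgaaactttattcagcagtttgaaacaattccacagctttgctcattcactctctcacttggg

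The table held promoters for 7 of the 9 members, 8 sequences in all, and none for Dcn or Lum. The TEAD letters occurred in 1 of the 8, that of Ogn, at 86 bases before the start, and in 14.7% of all 32851 mouse promoters in the table. The AP-1 letters occurred in 0 of the 8 and in 7.81% of all promoters. The TATA box letters occurred in 2 of the 8, those of Aspn and Ogn, between 229 and 178 bases before the start, and in 13.6% of all promoters. In the Ogn sequence the forward and reverse TATA matches overlap. A match is a description of letters and not of a bound site.

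On chromosome 10 Dcn is followed by Lum, Kera and Epyc, all on the plus strand. Dcn fell in both genotypes and Lum in controls, Kera did not pass (0.62 ± 1.29 in cdKO and -0.57 ± 1.36 in controls), and Epyc had 11 counts in all and was not tested. On chromosome 1, Optc (4 counts) and Prelp lie on the minus strand. Fmod lies on the plus strand and starts 140 kb from the lower-coordinate end of Optc. Btg2, an antiproliferative gene beyond Fmod, fell in both genotypes (-1.36 ± 0.29 in cdKO, adjusted p = 0.00326, and -0.93 ± 0.29 in controls, adjusted p = 0.0239). Lax1, on the other side of Optc, fell in controls (-1.99 ± 0.69, adjusted p = 0.0408) and was at 0.06 ± 0.62 in cdKO (adjusted p = 0.968), and Zc3h11a and Atp2b4 did not pass in either genotype. The control values of Btg2 and Lax1 without control overload replicates 2 and 3 were -1.07 and -1.53. Their control calls were lost in 5 and 9 of 20 alternatives. Bgn on chromosome X and Podn on chromosome 4 (108014791 to 108096445, minus strand) have no other family member nearby.

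**Figure D4:**
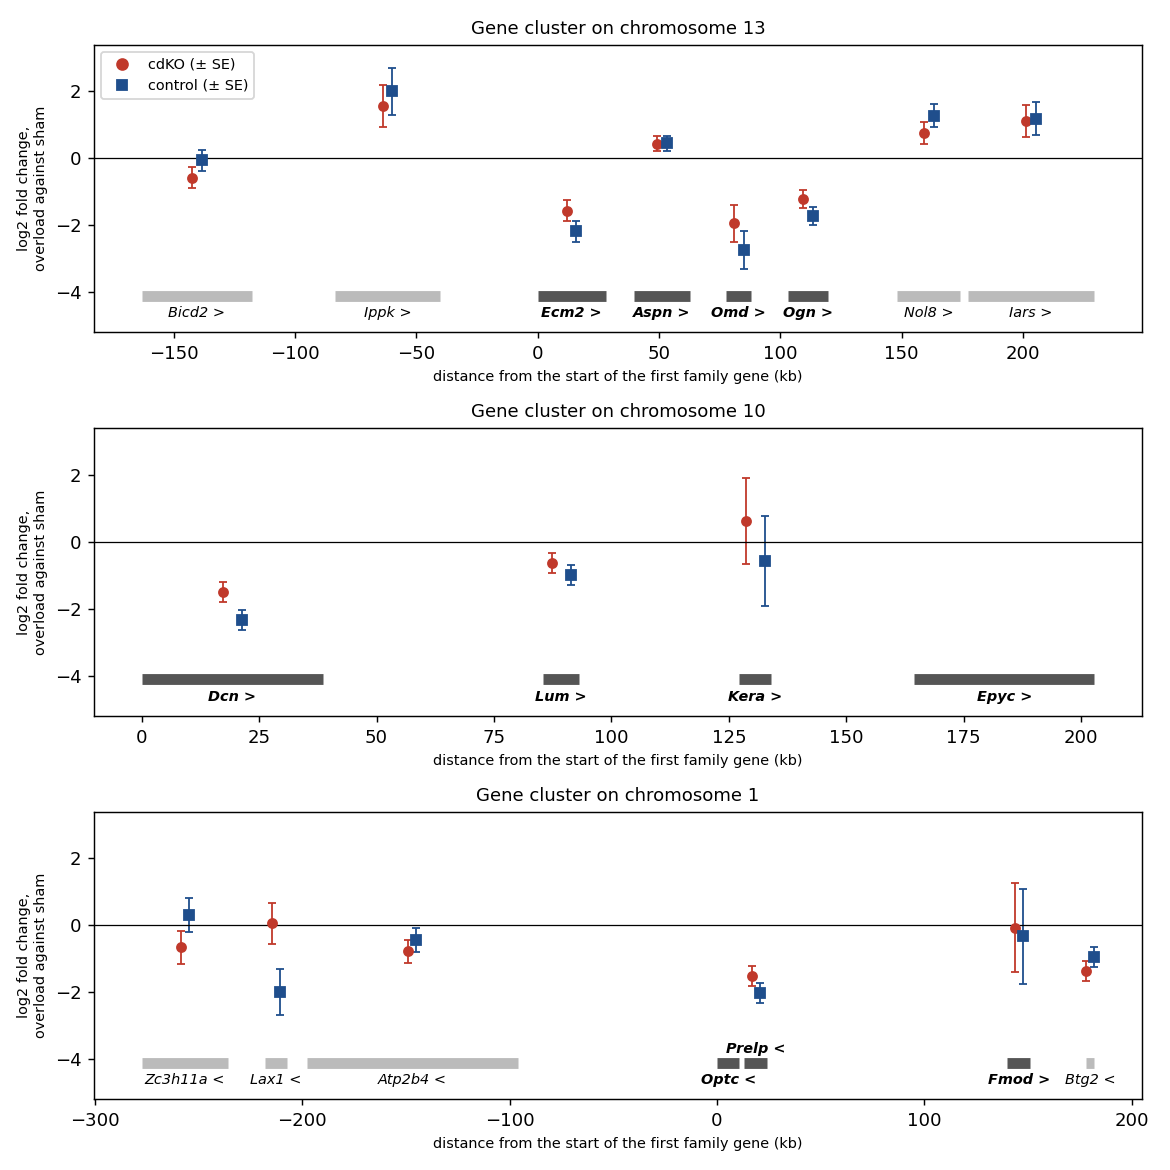
Log2 fold change under overload (± SE) of tested genes along the 3 clusters that hold several family members. Each gene stands at its midpoint, in kb from the lower-coordinate end of the first family gene. Grey bars are gene spans, darker for the family, and > and < give the strand. On chromosome 13 Aspn lies above 0 while Ecm2, Omd and Ogn on either side lie between -1.21 and -2.75.

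Of 8 further family members outside the 9, 4 had enough counts to be tested. Ecm2 fell, at 55.6, 71.5 and 92.1 CPM in cdKO overload, against 236.5, 259 and 153 CPM in cdKO sham (-1.56 ± 0.31, adjusted p = 0.00155). In control overload it was at 74.1, 51.9 and 26.9 CPM, against 159.9, 238 and 288 CPM in control sham (-2.18 ± 0.32, adjusted p = 3.32e-05). Tsku, which encodes tsukushi, a secreted modulator of BMP and TGF-beta signals, rose instead. It was at 83.4, 93.6 and 70.7 CPM in cdKO overload, against 40.3, 30.2 and 29.0 CPM in cdKO sham (1.32 ± 0.29, adjusted p = 0.00422), and at 60.3, 102 and 103 CPM in control overload, against 40.5, 24.6 and 32.4 CPM in control sham (1.49 ± 0.31, adjusted p = 0.00106). For neither gene did overloaded and sham libraries overlap. Without control overload replicates 2 and 3 the control value was -1.64 for Ecm2 (adjusted p = 0.0332) and 0.90 for Tsku, which then did not pass (adjusted p = 0.318). Tsku did not pass with the Y-linked covariate either (0.94, adjusted p = 0.160). Chad and Kera did not pass, and Epyc, Optc, Nyx and Podnl1 had too few counts.

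The family's proteins are finished by enzymes that build their sugar chains. Of 15 tested genes for chondroitin and dermatan sulfate chains, 2 rose, 0 fell and 13 did not pass in each genotype, beside 13.0% of all tested genes called in cdKO and 21.7% in controls, a share near that of all genes in cdKO and below it in controls. Csgalnact1, which starts the chondroitin chain, was at 95.8, 31.2 and 85.3 CPM in cdKO overload, against 16.5, 14.6 and 25.1 CPM in cdKO sham (1.95 ± 0.40, adjusted p = 0.00211). In control overload it was at 63.7, 108 and 99.2 CPM, against 18.0, 9.57 and 6.48 CPM in control sham (2.98 ± 0.44, adjusted p = 3.74e-05). Chst11, a chondroitin 4-O-sulfotransferase, rose in controls (3.54 ± 0.69, adjusted p = 6.20e-04) and was at 1.76 ± 0.63 in cdKO (adjusted p = 0.0640), while Ust, a uronyl 2-O-sulfotransferase, rose in cdKO (0.96 ± 0.32, adjusted p = 0.0476) and was at 0.30 ± 0.32 in controls (adjusted p = 0.545). The Ust call was lost in 15 of 20 alternatives. Without control overload replicates 2 and 3 the control value was 2.43 for Csgalnact1 (adjusted p = 0.0201) and 2.82 for Chst11, which did not pass (adjusted p = 0.172). Of 3 tested genes for keratan sulfate, 0 passed in either genotype by edgeR, and 0 by DESeq2. The count at an unadjusted p under 0.05 was 0 in cdKO and 1 in controls.

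The fibrillar collagens that these proteoglycans coat, counted with the fibril-associated types XII and XIV, stood mostly higher. Of 9 tested genes, 4 rose, 0 fell and 5 did not pass in cdKO, and 4 rose, 1 fell and 4 did not pass in controls. Over all tested genes 6.37% were called higher in cdKO, and 10.6% were called higher and 11.0% lower in controls. Col3a1 rose by 1.39 ± 0.27 in cdKO (adjusted p = 0.00142) and 1.53 ± 0.27 in controls (adjusted p = 2.81e-04), and Col12a1 by 1.75 ± 0.25 and 1.87 ± 0.25 (adjusted p = 6.67e-05 and 1.07e-05). Col1a1 and Col5a2 rose in both genotypes as well, by 1.17 ± 0.26 and 1.18 ± 0.25 in cdKO and by 1.43 ± 0.26 and 1.69 ± 0.25 in controls. The gene that fell in controls was Col14a1, named after its value was seen (-1.02 ± 0.28, adjusted p = 0.00945). Without control overload replicates 2 and 3, Col3a1, Col12a1 and Col5a2 passed in controls at 1.39, 1.81 and 1.35 (adjusted p = 0.0274, 0.00259 and 0.0170). Col1a1, at 1.10, and Col14a1, at -0.65, did not pass then (adjusted p = 0.0774 and 0.387), and the Col14a1 call was also lost without control overload replicate 3 alone (-0.72, adjusted p = 0.0731), without the filter on low counts (adjusted p = 0.0729) and with the Y-linked covariate (adjusted p = 0.138).

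Of 10 tested genes listed for the cutting and processing of the family (proteases, and Pcolce, which enhances procollagen cleavage and is no protease), 0 rose, 1 fell and 9 did not pass in cdKO, where 13.0% of all tested genes were called, and 1 rose, 3 fell and 6 did not pass in controls, where 21.7% were. Mmp2, a gelatinase that can cleave decorin, fell in both genotypes (-0.80 ± 0.26 in cdKO, adjusted p = 0.0410, and -1.25 ± 0.26 in controls, adjusted p = 0.00116). Htra1, a serine protease that degrades several matrix proteoglycans, and Adamts5, an aggrecanase, fell in controls (-1.95 ± 0.46 and -0.77 ± 0.25, adjusted p = 0.00726 and 0.0260), and Furin, a proprotein convertase, rose (0.98 ± 0.26, adjusted p = 0.00764). With control overload replicates 2 and 3 left out, Mmp2 passed in controls at -1.67 (adjusted p = 0.0166), and Htra1 at -0.98, Adamts5 at -0.80 and Furin at 0.93 did not (adjusted p = 0.291, 0.291 and 0.203). The Adamts5 call was also lost without control sham replicate 2 (adjusted p = 0.121) or control overload replicate 3 (adjusted p = 0.128). The cdKO call of Mmp2 was lost in 9 of 20 alternatives.

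Of 15 tested signals and receptors that the family binds, 2 rose, 0 fell and 13 did not pass in cdKO, and 2 rose, 2 fell and 11 did not pass in controls, again beside 13.0% and 21.7% of all tested genes. Ccn4, a matricellular protein reported to bind decorin and biglycan, rose by 2.75 ± 0.36 and 3.88 ± 0.40 (adjusted p = 2.89e-05 and 3.85e-07), and Ccn2 by 2.22 ± 0.57 and 2.31 ± 0.57 (adjusted p = 0.0251 and 0.0129), each in cdKO and in controls. Ccn2, a gene often read as a YAP and TAZ target, was at 295, 1348 and 1619 CPM in control overload, against 153, 309 and 191 CPM in control sham. Its control overload replicate 1 lay within the sham range, and without replicates 2 and 3 Ccn2 was at 0.40 and did not pass (adjusted p = 0.756), while Ccn4 was at 3.25 (adjusted p = 1.68e-04). The Ccn2 value with the Y-linked covariate was 0.87 (adjusted p = 0.522), its control call was lost without control sham replicate 1 (adjusted p = 0.0524), and its cdKO call was lost without any 1 of the 3 cdKO overload libraries or without cdKO sham replicate 2 or 3 (adjusted p = 0.0512 to 0.106). The growth factor gene Bmp4 and the receptor gene Igf1r fell in controls (-1.53 ± 0.39 and -0.75 ± 0.24, adjusted p = 0.00976 and 0.0241), and did not pass without control overload replicates 2 and 3 (-0.97 and -0.55, adjusted p = 0.398 and 0.490). The Bmp4 call was also lost without control sham replicate 2 (adjusted p = 0.0612), and that of Igf1r without control sham replicate 1 or 2 or control overload replicate 2 or 3 (adjusted p = 0.0859 to 0.114). In the comparisons of cdKO with control and in the interaction, 0 of the 52 tested genes of these lists passed by edgeR or by DESeq2. Over all tested genes edgeR called 0.0368% in overloaded muscle, 0.0123% in sham muscle and 0.0% in the interaction. At an unadjusted p under 0.05 there were 5 of the 52 in overloaded muscle, 1 in sham muscle and 2 in the interaction. The shares of all tested genes that reached it were 6.97%, 4.09% and 5.23%.

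**Figure D5:**
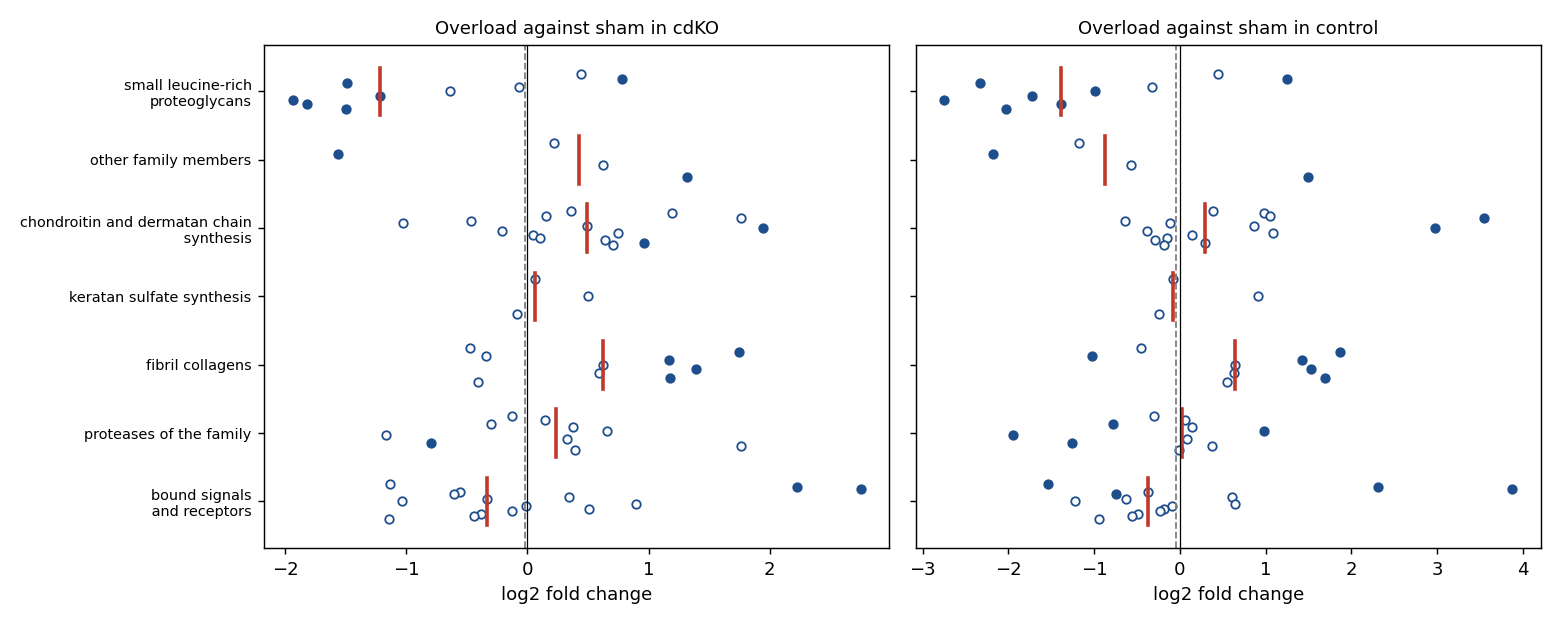
Log2 fold change under overload of each tested gene in the lists around the family, in cdKO on the left and control on the right; filled circles passed at an adjusted p under 0.05, the red bar is the list median and the dashed line the median of all tested genes. The list medians of the 9 proteoglycans, -1.21 and -1.39, lie below those of the fibril collagens, at 0.62 and 0.65.

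Markers of cell types were read beside these changes. Over all tested genes 6.68% were called lower in cdKO and 11.0% in controls. Progenitor markers had a median log2 fold change of -1.08 in cdKO and -1.32 in controls. The values for the 9 proteoglycans were -1.21 and -1.39. Of 9 progenitor markers, 0 rose and 5 fell in cdKO and 0 rose and 6 fell in controls. Their summed level was 12341 to 20751 CPM in cdKO overload, against 37624 to 51526 CPM in cdKO sham, and 7887 to 13065 CPM in control overload, against 37873 to 48735 CPM in control sham. Most of that sum was Gsn, which encodes gelsolin, at 8416 to 15860 CPM in cdKO overload, against 30623 to 45325 CPM in cdKO sham, and 4542 to 8796 CPM in control overload, against 31810 to 42434 CPM in control sham. The other 8 markers summed to 3926 to 4891 CPM in cdKO overload, against 5804 to 7001 CPM in cdKO sham, and 3345 to 4269 CPM in control overload, against 6063 to 7365 CPM in control sham. Ly6a did not pass in either genotype (0.16 ± 0.25 in cdKO and -0.41 ± 0.26 in controls, adjusted p = 0.743 and 0.257). Summed endothelial markers were at 29.2 to 50.7 CPM in cdKO overload, against 58.7 to 153 CPM in cdKO sham, and at 17.5 to 102 CPM in control overload, against 101 to 167 CPM in control sham. Of 5 tested endothelial markers 0 rose and 1 fell in each genotype. Of 5 tested pericyte and smooth muscle markers 0 rose in either genotype, and 1 fell in cdKO and 2 in controls. Pericyte and smooth muscle markers summed to 349 to 364 CPM in cdKO overload, against 361 to 585 CPM in cdKO sham, and to 180 to 271 CPM in control overload, against 426 to 544 CPM in control sham. The largest part of that sum was Steap4, at 255 to 260 CPM in cdKO overload, against 220 to 387 CPM in cdKO sham, and 106 to 155 CPM in control overload, against 241 to 292 CPM in control sham. Leukocyte markers summed to at most 55.1 CPM, glial markers to at most 27.6 CPM, myofibre markers to at most 47.3 CPM and muscle stem cell markers to at most 19.8 CPM in any library. Of 4 tenocyte markers, Tnmd, Scx and Mkx had too few counts to be tested, and Thbs4 made up nearly all of a sum of 3696 to 4000 CPM in cdKO overload, against 201 to 414 CPM in cdKO sham, and of 2283 to 5112 CPM in control overload, against 98.4 to 304 CPM in control sham. The part of other cell types in the family's values was not tested.

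Outside the family, the genes whose levels over the 12 libraries were most like each member were ranked by the root mean square difference in log2 CPM, after centring each gene on its mean. The nearest to Dcn was Igfbp6, an IGF-binding protein (0.21), then Efemp1 and Atf3, and Prelp had Atf3 (0.22), Igfbp6 and Cdkn1a. Within the family Dcn and Prelp were the closest pair (0.28), followed by Bgn and Aspn (0.34), while Fmod and Podn were the farthest apart (1.80). The measure is small for genes that vary little. Over the 12 libraries the SD of log2 CPM was 0.28 for Aspn and 0.55 for Bgn, against 1.02 for Dcn and 0.98 for Prelp. Bgn was nearest to Maged2 (0.15), Praf2 and Slc30a7. Maged2 and Praf2 lie on the X chromosome, as Bgn does. Aspn was nearest to Taf1d (0.12), Jarid2 and Rdx, Lum to Nfkbia (0.23), and Ogn to Serping1 (0.28), Parp9 and Gpx3. Omd was nearest to Mettl27 (0.39), Adh1 and Rtn1, Podn to Fos (0.30), Sirt1 and Gas6, and Fmod, after Chad, to Fstl5 and Mttp. These are descriptions over libraries that share groups and depth.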

How the data were processed

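The table deposited by the authors holds raw, whole-number counts for each gene in the 12 libraries. The submitters' processing notes name the build GRCm38 and, in no stated role, DESeq2 1.26.0, featureCounts 2.0.1, HISAT2 2.2.1 and Trim Galore 0.6.6. Per the labels, libraries followed a published low-input protocol (CEL-Seq2) that tags 3′ ends. Neither names the annotation, the strand setting or the use of molecular identifiers. Reads of overlapping antisense genes therefore cannot be told apart, and the counting floor covers counting error only.

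Positions and names came from GENCODE M21 (GRCm38), which held 54100 of 54100 identifiers. edgeR 4.0.16 in R 4.3.3 kept genes by filterByExpr, scaled libraries by TMM factors over the tested genes and fitted a robust quasi-likelihood model (1 mean for each group, all 12 libraries together), for 5 two-sided contrasts adjusted over 8161 genes. CPM uses the tested genes' counts and TMM factors. The standard error is the absolute log2 fold change over the square root of F. Replicates differed beyond sampling noise in every pair (3.22 to 19.2 chi-square units per degree of freedom). The highest values, 19.2 and 12.1, were those of the pairs with control overload replicate 2. Each library was counted as 1 sample, as the labels list them.

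Named genes were the members and other family members, up to 4 passing genes with the smallest p from each other list, and the 3 nearest genes to each member in pattern, and of the cell type markers those needed to describe a sum. For Lum, the genes after the nearest are not reported here. The members and lists were chosen with earlier results of these data known. Alternatives were DESeq2 1.42.0, its size factors in edgeR, no filter, a fit to the groups compared alone, a replicate block, library sizes without the 9 genes, each library left out in turn, and the removal of control overload replicates 2 and 3. A Y-linked covariate was added after seeing the data.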

Additional observations from a re-analysis of the deposited data

How the results depend on the processing

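Of the called fold changes of the 9 genes, 242 values over all alternatives kept their side of the threshold, 18 lost it and 0 changed sign. Members called in cdKO overload against sham numbered 6, and 4 to 6 with a library left out. In controls they numbered 7, 6 to 7 with a library left out, 5 with the Y-linked covariate, which lost Lum and Podn, and 3 without control overload replicates 2 and 3, which lost Lum, Podn, Ogn and Omd. In the genotype comparisons and the interaction they stayed at 0 in every alternative run.

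Without the filter on low counts, all-gene counts were 702 in cdKO overload, against 1065, then 17, against 3, between genotypes in overloaded muscle, and 10, against 0, for the interaction. That setting also moved the median of all genes in control overload by 0.15, and no other setting moved a median by over 0.1. DESeq2 called 2 genes in sham muscle, against 1, and 1 for the interaction. Fitting the groups compared alone called 1 gene between genotypes in overloaded muscle. Without control overload replicates 2 and 3 the counts were 217, against 1768, in control overload, 7 between genotypes in overloaded muscle and 2 for the interaction. With the Y-linked covariate the control overload count was 622. With 1 library left out, counts ran from 431 to 1310 in cdKO overload, 1058 to 2413 in control overload, 1 to 34 and 0 to 1 between genotypes in overloaded and sham muscle, and 0 to 1 for the interaction.

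The labels do not say whether same-numbered replicates were paired, and correlations over 3 libraries a group cannot settle it. Of 18 same-numbered pairs, 6 had a correlation of deviations over 0.1. These 18 ran from -0.23 to 0.27, with a median of 0.03 against -0.02 for other pairs. Of 12 libraries, 5 correlated best with their own number. With the replicate block the member counts were 6, 7, 0, 0 and 0 and the all-gene counts 1035, 1752, 3, 1 and 0, in the order of cdKO overload, control overload, cdKO against control in overloaded and in sham muscle, and the interaction.

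The sign turned for values that had not passed, and the cause was not tested. Fmod in cdKO overload was 0.013 without the filter and 0.44 with the replicate block, and Fmod in control overload was 1.33 without control overload replicates 2 and 3 and 0.96 with the Y-linked covariate. Between genotypes in overloaded muscle, Podn and Bgn were -0.022 and -0.0097 by DESeq2, -0.0092 and -0.0098 with its size factors, -0.017 and -0.014 without the filter and -0.010 and -0.0089 for the groups compared alone, and Podn was -0.036 with the replicate block. In that comparison without control overload replicates 2 and 3, Lum was -0.12, Podn -0.42, Omd -0.95, Bgn -0.017, Prelp -0.44 and Fmod -1.36, and with the Y-linked covariate Bgn was -0.18, Prelp -0.14 and Fmod -1.26. For the interaction, Fmod was -0.048 by DESeq2. Without those replicates Lum was -0.18, Omd -0.49, Aspn 0.042, Prelp -0.12 and Fmod -1.40, and with the covariate Lum was -0.013, Aspn 0.041 and Fmod -1.55.

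With 1 library left out, Fmod ran from -0.66 to 1.36 in cdKO overload, -2.47 to 1.71 in control overload, -0.29 to 2.44 and -1.40 to 2.08 between genotypes in overloaded and sham muscle, and -1.79 to 2.39 for the interaction. Between genotypes in overloaded muscle Bgn ran from -0.084 to 0.13, Omd from -0.17 to 1.17, Podn from -0.47 to 0.26 and Prelp from -0.082 to 0.62. Lum ran from -0.052 to 0.20 in sham muscle and the Aspn interaction from -0.10 to 0.075. Fmod and Omd had the fewest counts of the 9, 142 and 150 over all libraries. Fmod had 7 counts in the library with the most counts and 22 to 28 in the 3 libraries where it was highest.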
